A study of Mus musculus with 12 samples.

Results

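The genes described here encode chromatin repressors that hold germline genes and repeated elements silent by means other than DNA methylation. They were taken by name as 10 rows of the deposited table of 20308 genes: E2f6, Mga, Max, L3mbtl2 and Pcgf6 of the variant Polycomb complex PRC1.6, Trim28, Setdb1, Ehmt1 and Ehmt2 of the histone H3 lysine 9 (H3K9) methylation system, and Cbx3, which belongs to both. All 10 were present in the table and all 10 passed the filter on low counts. RNA came from mouse embryos of strain C57BL/6J, taken at embryonic day 15.5, and from the epithelial lining of their urogenital sinus, the tube that forms the bladder neck, urethra and prostate. The 4 Control libraries were from wildtype embryos and the 8 Dnmt1cKO libraries from embryos in which Cre recombinase under a Shh driver deleted Dnmt1, the enzyme that copies DNA methylation to the new strand after replication. Only cells that expressed Shh or descended from such cells could lose Dnmt1, the epithelium was freed from stroma with trypsin, and each library came from tissue of several pooled embryos. The comparison asked which transcripts differed between epithelium from Dnmt1 mutant and wildtype embryos, and is read here for the repressors.

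In somatic cells a set of germline genes is kept silent by several systems at the same promoters. PRC1.6 reaches them through DNA-binding subunits: E2F6 binds E2F sites, and the heterodimer of MGA and MAX binds the E-box. Around these, L3MBTL2 is a chromatin-binding scaffold and PCGF6 pairs with the RING proteins that ubiquitinate histone H2A. In the H3K9 system, zinc finger proteins with a KRAB domain recruit TRIM28, which brings the methyltransferase SETDB1 to repeats, and the dimer of EHMT1 and EHMT2 (GLP and G9a) places mono- and dimethylation at euchromatic genes. CBX3 (HP1 gamma) reads the H3K9 mark. DNA methylation acts at many of the same promoters.

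RefSeq promoter windows (GRCm38.p6, from 250 bases before to 50 after the transcription start, 300 bases in all) were searched on both strands for CACGTG, the E-box, and for GCGGGAA, an E2F core. The motifs do not overlap each other. Of 30 germline genes listed as targets of these repressors, 26 had a window, and 14 of these (53.8%) held the E-box against 8.09% of all 27025 genes. The E2F core was in 10 of them (38.5%) against 5.29% of all genes, and both motifs were in 6 (23.1%) against 0.611%. Neither motif was in 8 of the 26, Dazl and Syce1 among them. Among the 9514 genes with at least 15 CpG in the window, a comparison chosen after the windows were seen, the shares were 12.5%, 11.3% and 1.36%. Of the 10 repressor genes themselves, 2 held the E-box (Max and Ehmt2) and 1 the E2F core (Trim28). A gene with several windows counted once if any of them held the motif, and its CpG were read from the first window. These matches are letters in a window and do not show that a protein is bound there. The germline genes were listed as targets of repressors whose subunits bind these motifs, so their higher shares are no independent test of the list.

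The upstream stretches below, shown because they hold the letters that the DNA-binding subunits read, have the motifs in capitals, each written 5′ to 3′ on the strand of its gene. Taf7l and Sycp1 are germline targets that rose, with the E-box starting 49 and 94 bases before the start (chrX:134476491-134476610, minus strand, and chr3:102936101-102936220, minus strand). Hormad1, a meiotic chromosome protein gene that did not pass the test (edgeR, Benjamini-Hochberg adjusted p = 0.0695), holds both motifs and the E-box 2 times (chr3:95559557-95559676, plus strand). It was chosen after its window was seen. Ehmt2 (chr17:34898354-34898464, plus strand) and Trim28 (chr7:13023952-13024051, plus strand) are repressor genes with a match upstream of the start. Ehmt2 holds another E-box further upstream, outside the stretch printed, and a further one in the window of another start. The E-box of Max spans positions close to its start. The Taf7l, Sycp1, Hormad1 and Ehmt2 stretches overlap no annotated gene, and the Trim28 stretch lies within an intron of a longer Trim28 transcript (GENCODE M21).
Taf7l: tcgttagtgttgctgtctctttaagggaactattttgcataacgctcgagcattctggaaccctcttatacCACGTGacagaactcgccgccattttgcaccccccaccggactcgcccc
Sycp1: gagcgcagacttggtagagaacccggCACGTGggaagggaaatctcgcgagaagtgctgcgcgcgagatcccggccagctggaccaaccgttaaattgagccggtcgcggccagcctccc
Hormad1: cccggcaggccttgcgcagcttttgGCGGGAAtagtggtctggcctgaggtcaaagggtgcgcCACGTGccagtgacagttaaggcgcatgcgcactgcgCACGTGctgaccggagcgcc
Ehmt2: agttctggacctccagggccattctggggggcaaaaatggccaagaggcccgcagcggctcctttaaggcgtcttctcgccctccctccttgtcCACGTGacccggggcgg
Trim28: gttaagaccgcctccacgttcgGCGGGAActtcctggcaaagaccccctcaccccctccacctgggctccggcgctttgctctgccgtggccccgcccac

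**Figure D1:**
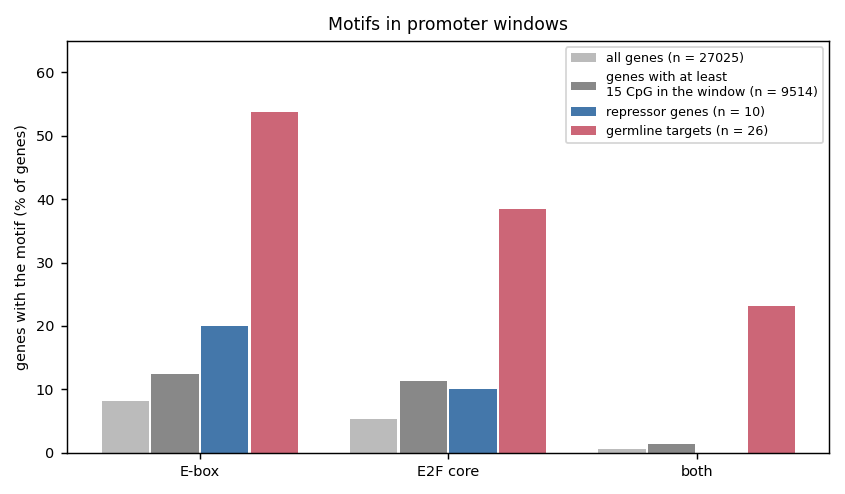
Share of genes whose promoter window holds the E-box (CACGTG), the E2F core (GCGGGAA) or both, in percent of genes, for all genes with a window, genes with at least 15 CpG in the window, the 10 repressor genes and the 26 germline targets with a window. The germline targets stand at 53.8%, 38.5% and 23.1%, and all genes at 8.09%, 5.29% and 0.611%.

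Depth sets how far each value can be read. The Controls held 543591 to 7577706 expected counts and the Dnmt1cKO libraries 4007533 to 11970907. Control 3 and the library labelled Control 4 were the shallowest and stood apart from the other 10 on the first principal component (127.3 and 245.7, against -52.63 to -3.661). In the library labelled Control 4, 47.7% of the 12761 genes tested had no count. Dnmt1 stood at 164, 114, 237 and 2.84 CPM (read counts scaled to the TMM-adjusted library total) in Controls 1 to 4. In Dnmt1cKO it stood at 22.8 to 97.0 CPM (median 50.7). By Dnmt1 alone, at 1 count, the library labelled Control 4 went against its label. That library had no count of Taf7l, Dazl, Sycp1 or Syce1, germline genes detected in every Dnmt1cKO library (Taf7l at 150 to 427 CPM). Dnmt1 had a log2 fold change of -1.29 ± 0.63 (SE) and did not pass the test (edgeR, Benjamini-Hochberg adjusted p = 0.284). It was -0.84 without Control 3 and -0.32 with the stromal level described next as a covariate. The table counts whole genes, and which exons were deleted is not given in the sources used here. All 10 epithelial markers, Epcam and Cdh1 among them, were detected in each of the 12 libraries. In Control 3, however, Trp63 and Foxa1 stood at 2.26 CPM, Shh at 3.77 CPM and Krt19 at 11.3 CPM. Control 1 held 230, 78.1, 218 and 541 CPM of these, while Epcam, Krt8 and Krt18 were higher in Control 3 than in Control 1. Control 3 also had the highest summed endothelial (142.5 CPM), immune (99.5 CPM), erythroid (5798 CPM) and neural and glial (359.6 CPM) markers of all libraries. Summed over 8 stromal markers, the level was 1251 to 9416 CPM in Control and 261 to 5947 CPM in Dnmt1cKO, and the part of stroma in the results was not tested beyond a fit with the stromal level as a covariate, in which none of the 10 repressor genes was called. Of 4 germ cell markers, Pou5f1, Dppa3 and Nanos2 had no count in any library, and Kit was detected in all 12, at 87.5, 0.337, 2.26 and 8.53 CPM in Controls 1 to 4 and at 3.99 to 84.2 CPM in Dnmt1cKO. In bulk tissue, fewer cells of a type and less RNA per cell cannot be told apart.

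None of the 10 repressor genes was called higher or lower in Dnmt1cKO (edgeR quasi-likelihood test, Benjamini-Hochberg adjusted p under 0.05 over 12761 genes). Over all genes tested, 1.03% were called higher and 1.55% lower, so at the background rate a list of this size would hold few or no calls. The split of calls moved with the scaling, from 132 higher and 198 lower to 170 and 726 with RLE factors and to 113 and 47 with library totals alone, and the median log2 fold change of all genes moved to 0.072 and 0.38. At an unadjusted p under 0.05, 1 of the 10 was higher (Cbx3) and 0 lower in edgeR, against 8.19% and 9.54% of all genes. DESeq2, which gave Max no adjusted p, and limma-voom called 0, and the lowest adjusted p in edgeR was 0.232 (Cbx3). The median log2 fold change was 0.31 for the 10 genes and 0.22 for all genes tested. In 6 of the 10 the log2 fold change was above 0, against 57.3% of all genes. The adjusted p-values do not show that levels were equal, and the intervals of the differences below give the sizes that these libraries could still hold.

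**Figure D2:**
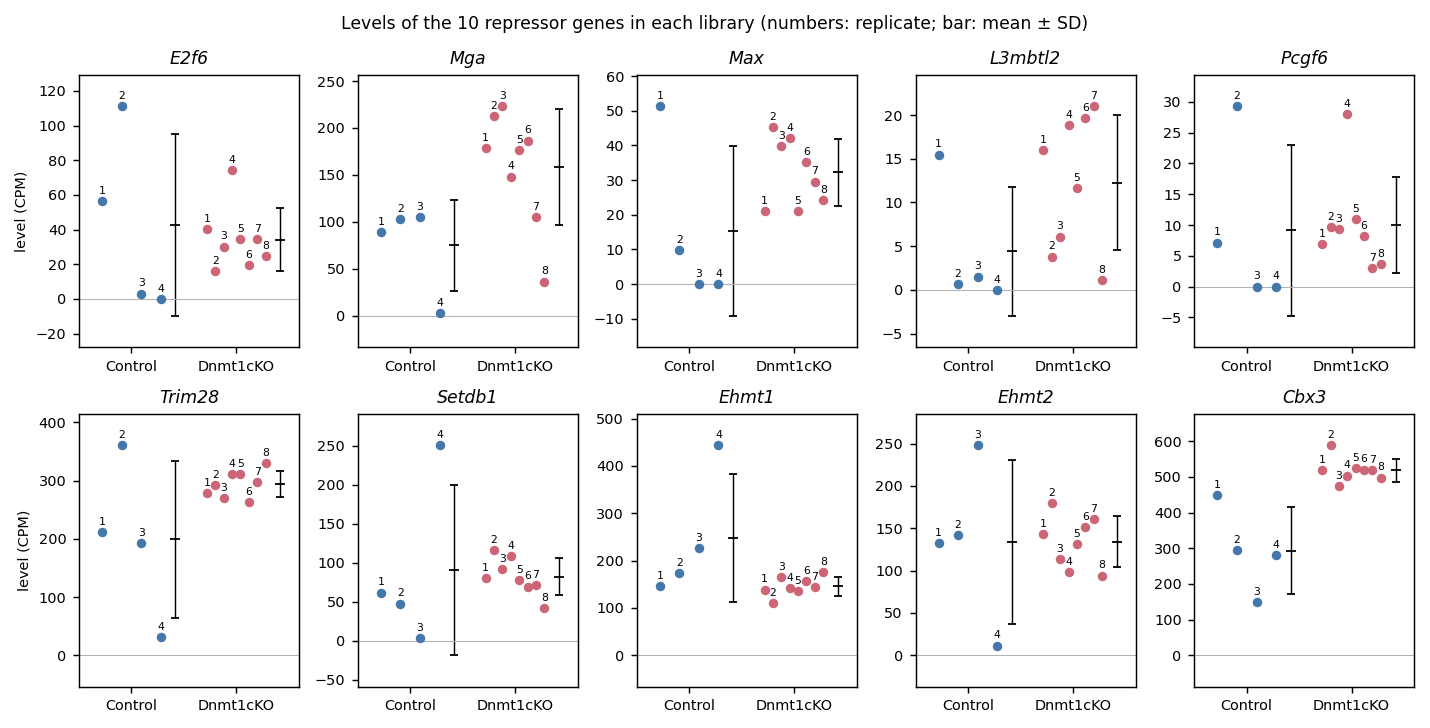
Level in CPM (vertical axis, linear, a separate scale for each gene) of the 10 repressor genes in each Control (blue) and Dnmt1cKO (red) library, with replicate numbers beside the points and the mean ± SD as a bar. The Dnmt1cKO libraries lie close together for Trim28 (263 to 329 CPM), Ehmt1 (110 to 175 CPM) and Cbx3 (474 to 589 CPM), and the Controls are spread more widely for each of them.

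E2f6 (chromosome 12, 16810963 to 16839742, plus strand, mm10), whose protein binds E2F sites without activating them, stood at 56.6, 111, 3.02 and 0 CPM in Controls 1 to 4. Among Dnmt1cKO libraries it ran from 15.9 to 74.5 CPM with a median of 32.3. Controls 1 and 2 were high and Controls 3 and 4 low, so the groups overlapped fully. The log2 fold change was -0.35 ± 0.84 (SE), with a 95% interval from -2.05 to 1.35. Without Controls 3 and 4 it was -1.22 ± 0.49 (SE; edgeR unadjusted p = 0.0233, Benjamini-Hochberg adjusted p = 0.441), and 7 of the 8 Dnmt1cKO libraries lay below both remaining Controls. Without Control 2 alone the direction turned, with a log2 fold change of 0.70.

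Mga (chromosome 2, 119897228 to 119969581, plus strand) encodes the large scaffold that pairs with MAX. Controls 1 to 3 held 89.5, 103 and 106 CPM of it, and the library labelled Control 4 held 2.84 CPM, from 1 count. The Dnmt1cKO libraries ran from 36.5 to 223 CPM with a median of 178. Dnmt1cKO 8 was below Controls 1 to 3, Dnmt1cKO 7 stood at their level, and the other 6 libraries lay above every Control. Mga thus had a log2 fold change of 1.05 ± 0.60 (SE, 95% interval -0.17 to 2.28), which was not called (edgeR, Benjamini-Hochberg adjusted p = 0.376), and it lay between 0.75 and 1.81 in all 21 alternative fits.

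Max (chromosome 12, 76937269 to 76962201, minus strand), the common partner of the MYC, MXD and MGA proteins, stood at 51.4 and 9.78 CPM in Controls 1 and 2 and had no count in Controls 3 and 4. Counts of 0 allow up to 2.26 CPM in Control 3, and up to 8.53 CPM in that labelled Control 4, at 3 counts each. At the level of Control 1, 68.2 and 18.1 counts would have been expected there, and at the level of Control 2 only 13 and 3.44. In Dnmt1cKO Max ran from 21.1 to 45.3 CPM (median 32.4), between Controls 1 and 2. Its log2 fold change was 1.003 ± 0.96 (SE), 3.05 without Control 1, 0.58 without Control 3 and 0.12 without Controls 3 and 4, so the size rested on which Controls were kept.

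L3mbtl2 (chromosome 15, 81663889 to 81688315, plus strand) was the lowest of the set per length. It stood at 15.5, 0.674, 1.51 and 0 CPM in Controls 1 to 4, where all but 4 of its 130 counts came from Control 1. Dnmt1cKO levels ran from 1.141 to 21.0 CPM (median 13.8), with Dnmt1cKO 2, 3 and 8 low and the other 5 libraries at 11.7 CPM or more. The log2 fold change of 1.34 ± 1.195 (SE) was 3.82 without Control 1 (edgeR, Benjamini-Hochberg adjusted p = 0.0949). Exons of L3mbtl2 overlap those of Chadl on the other strand, and its level is uncertain, since the strand setting of the counting is not given in the sources used here.

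Pcgf6 (chromosome 19, 47033617 to 47050906, minus strand), which names this form of PRC1, stood at 7.13 and 29.3 CPM in Controls 1 and 2 and had no count in Controls 3 and 4. Among Dnmt1cKO libraries it ran from 3.02 to 27.96 CPM with a median of 8.76. Control 2 and Dnmt1cKO 4 were the high libraries of their groups, and for E2f6 the same libraries were highest. Between groups the log2 fold change was 0.065 ± 1.15 (SE), and its 95% interval from -2.27 to 2.40 covers a ratio from 0.207 to 5.29. The value was 1.79 without Control 2, and it lay below 0 without Control 1, 3 or 4 or Dnmt1cKO 4 (-0.36 to -0.061).

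Among the genes of the H3K9 system, Trim28 (chromosome 7, 12999114 to 13031035, plus strand), the corepressor of KRAB zinc finger proteins, stood at 212, 360, 192 and 31.3 CPM in Controls 1 to 4. Dnmt1cKO levels ran from 263 to 329 CPM (median 295), a coefficient of variation of 7.81% against a median of 51.8% over all genes tested. All 8 Dnmt1cKO libraries lay between Controls 1 and 2. For Trim28 the log2 fold change was 0.55 ± 0.45 (SE), 1.004 without Control 2 and 0.28 without the library labelled Control 4. Without Controls 3 and 4 it was 0.11 ± 0.24 (SE), and the 95% interval of the ratio then ran from 0.756 to 1.54.

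Setdb1 (chromosome 3, 95323525 to 95357202, minus strand), the methyltransferase that TRIM28 recruits, gave 61.5, 47.2 and 3.02 CPM for Controls 1, 2 and 3. For that labelled Control 4 the level was 250 CPM, from 88 counts where 21.6 would have been expected at the level of Control 1. In Dnmt1cKO it ran from 41.6 to 116 CPM (median 78.8), and 7 of the 8 libraries lay above Controls 1 and 2. Setdb1 had a log2 fold change of -0.11 ± 0.66 (SE), and it turned to 1.18 once the library labelled Control 4 was left out (edgeR, Benjamini-Hochberg adjusted p = 0.362). It was 0.022 without Dnmt1cKO 8, the lowest of its group. Its exons overlap those of Cers2 on the other strand, so its level is uncertain.

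Ehmt1 (chromosome 2, 24789928 to 24919614, minus strand), which encodes GLP, stood at 146, 173, 227 and 444 CPM in Controls 1 to 4. In Dnmt1cKO it ran from 110 to 175 CPM (median 143), and 5 of the 8 libraries lay below every Control. Its log2 fold change was -0.75 ± 0.42 (SE) and was not called (edgeR, Benjamini-Hochberg adjusted p = 0.368), and DESeq2 gave -1.46 (Benjamini-Hochberg adjusted p = 0.0507). When the library labelled Control 4 was left out it was -0.24, and without Controls 3 and 4 it was -0.058 ± 0.26 (SE).

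Ehmt2 (chromosome 17, 34898469 to 34914052, plus strand), which encodes the partner G9a, stood at 133, 142, 248 and 11.4 CPM in Controls 1 to 4. In Dnmt1cKO it ran from 94.1 to 180 CPM (median 138). The group means were equal to 3 digits, 134 ± 96.8 CPM (SD, n = 4) in Control and 134 ± 30.4 CPM (SD, n = 8) in Dnmt1cKO, with a log2 fold change of -0.0076 ± 0.53 (SE). Without Controls 3 and 4 the 95% interval of the ratio was 0.665 to 1.56 for Ehmt2 and 0.657 to 1.41 for Ehmt1. In the library labelled Control 4 the levels of the 2 partners were far apart, with 156 counts of Ehmt1 and 4 of Ehmt2, against 1184 and 1081 counts in Control 1.

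Cbx3 (chromosome 6, 51470360 to 51483704, plus strand) was the highest of the set and the only one whose groups did not overlap. It stood at 449, 295, 149 and 282 CPM in Controls 1 to 4 and at 474 to 589 CPM in Dnmt1cKO (median 519). Every Dnmt1cKO library lay above every Control, as it did for 2.59% of all genes tested. All 8 lay above Controls 1 and 2 for 1 of the 10 repressor genes (4.63% of all genes), and all 8 lay below both for 0 of them (4.73% of all genes). Non-overlap below every Control was likewise seen for 0 (0.486% of all genes). Its log2 fold change of 0.82 ± 0.37 (SE; 95% interval 0.068 to 1.57) had an unadjusted p of 0.0336 and did not pass adjustment (edgeR, Benjamini-Hochberg adjusted p = 0.232). It was above 0 in all 21 alternative fits, from 0.41 with RLE factors to 1.10 without Control 1, and 0.54 without Controls 3 and 4. The lowest Dnmt1cKO library (474 CPM) and Control 1 (449 CPM) were close. GENCODE lists 8 pseudogenes of Cbx3 by name, and reads that fit several copies were divided by the authors' software, so its level is uncertain.

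**Figure D3:**
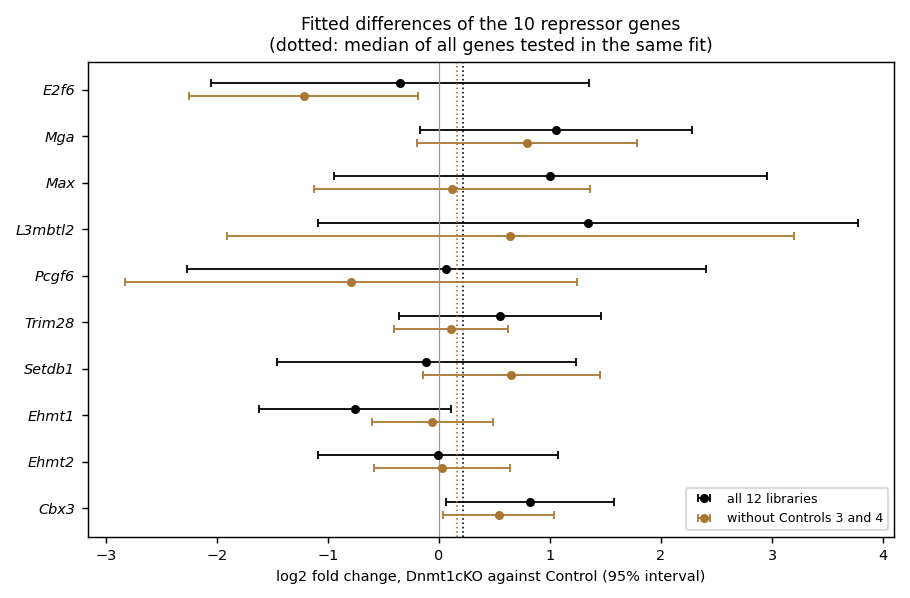
Log2 fold change of Dnmt1cKO against Control (horizontal axis) with its 95% interval for the 10 repressor genes, fitted with edgeR on all 12 libraries (black) and without Controls 3 and 4 (brown). Dotted lines mark the median of all genes tested in each fit. The intervals without Controls 3 and 4 are narrowest for Cbx3, Trim28, Ehmt1 and Ehmt2, and E2f6 moves from -0.35 to -1.22.

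Levels were set against each other per kilobase of exonic sequence (basic GENCODE M21 transcripts merged, 1.96 kb for Max to 13.9 kb for Mga). In Dnmt1cKO (SD, n = 8) Cbx3 stood at 264 ± 16.8 CPM per kb, Trim28 at 90.6 ± 7.07, Ehmt2 at 32.6 ± 7.38 and Ehmt1 at 24.4 ± 3.37 CPM per kb. Setdb1 (17.5 ± 5.03), Max (16.5 ± 4.94), E2f6 (14.2 ± 7.53) and Mga (11.4 ± 4.41) CPM per kb had overlapping spans of mean ± SD. Pcgf6 (4.61 ± 3.61) and L3mbtl2 (3.52 ± 2.23) CPM per kb were lowest and did not differ beyond their spread. The fitted differences of Pcgf6, L3mbtl2, Max and E2f6 carried the largest errors (SE 0.84 to 1.195). In Control (SD, n = 4) Cbx3 (150 ± 62.6 CPM per kb) and Trim28 (61.3 ± 41.5 CPM per kb) were also highest and L3mbtl2 (1.27 ± 2.12 CPM per kb) lowest.

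Sample descriptions carry a code of the letter b and a number that the labels do not explain, and both groups have codes 4, 5, 6 and 7. Within these codes 6, 5, 8 and 8 of the 10 repressor genes were higher in Dnmt1cKO, against 48.5%, 56.0%, 64.7% and 78.4% of all genes tested. Mga and Cbx3 were higher within each code, by 0.52 to 4.25 and by 0.079 to 1.81 in log2 CPM (pseudocount 2). E2f6 was lower within codes 4 and 5 (-0.86 and -0.57) and higher within codes 6 and 7 (2.86 and 3.78), whose only Controls are Control 3 and the library labelled Control 4. Ehmt1 was 0.19 higher within code 4 and lower within the other codes (-0.29 to -1.48).

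The other genes of these systems were read from lists of partners and relatives. No gene was called among the 9 PRC1.6 partners tested (edgeR; 0 at an unadjusted p under 0.05 in either direction). The lowest unadjusted p-values there belonged to Tfdp1, the dimer partner of E2F proteins (log2 fold change 1.03 ± 0.65, SE), and Rnf2, the main RING ubiquitin ligase (0.82 ± 0.61, SE). Among 7 E2F genes none was called (edgeR, with 0 at an unadjusted p under 0.05). Over all genes tested 1.03% were called higher and 1.55% lower, with 8.19% and 9.54% at an unadjusted p under 0.05 (edgeR). At these rates lists of 9 and 7 genes would hold few or no calls. E2f5, a repressor E2F, and E2f7, an atypical repressor, had log2 fold changes of -2.46 and 1.87, and that of E2f5 turned to 1.001 without Control 3, which held 100 CPM of it against 0 to 4.55 CPM in the other Controls. Median log2 fold changes were 0.34 for the PRC1.6 partners and -0.44 for the E2F genes, against 0.22 for all genes tested.

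Among 18 tested partners of H3K9 methylation Mphosph8, a chromodomain reader of H3K9 methylation in the HUSH complex, was the 1 gene called lower, against 1.55% of all genes (edgeR, with 1 higher and 1 lower by an unadjusted p under 0.05, against 8.19% and 9.54%). It stood at 180, 321, 950 and 2360 CPM in Controls 1 to 4 and at 89.8 to 275 CPM in Dnmt1cKO. Control 1 lay within the range of Dnmt1cKO and the other Controls lay above it. The fall of 2.34 on the log2 scale (edgeR, Benjamini-Hochberg adjusted p = 0.00336) was 1.28 without the library labelled Control 4 (adjusted p = 0.145, edgeR) and 0.34 without Controls 3 and 4 (adjusted p = 0.778, edgeR). Mxd4, a repressive partner of MAX, was the 1 of 10 MAX network genes called lower, against 1.55% of all genes. It stood at 79.5, 86.0, 184 and 637 CPM in Controls 1 to 4 against 44.6 to 78.6 CPM in Dnmt1cKO. Mxd4 thus showed no overlap, as did 0.486% of all genes tested in that direction, though Control 1 and the highest Dnmt1cKO library were close. Its log2 fold change of -1.98 was -0.83 once the library labelled Control 4 was left out (edgeR, Benjamini-Hochberg adjusted p = 0.313), and its call was also lost without Dnmt1cKO 1, 3, 4, 5 or 7 (-1.93 to -1.99). Jarid2, a subunit that targets Polycomb complex 2, was the 1 of 19 other Polycomb genes called lower, against 1.55% of all genes. It stood at 81.4, 181, 103 and 791 CPM in Controls 1 to 4 against 42.2 to 82.1 CPM in Dnmt1cKO. Its log2 fold change of -2.09 was -0.78 once the library labelled Control 4 was left out (edgeR, Benjamini-Hochberg adjusted p = 0.330). For all 3 genes the highest level was in the library labelled Control 4.

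Neither the 10 H3K9 demethylases nor the 10 KRAB zinc finger adaptors had a member called by edgeR, with Kdm4d higher and Zfp30 lower at an unadjusted p under 0.05. Kdm4d, a demethylase best known from testis, had no count in any Control and stood at 0 to 8.44 CPM in Dnmt1cKO, at least 14.02-fold higher by the floor of 3 counts over the Control group, and was not called (edgeR, Benjamini-Hochberg adjusted p = 0.139). It passed the filter only through its Dnmt1cKO level, so its unadjusted p is no test of a rise. Kdm1a, which encodes LSD1, had a log2 fold change of -0.73 ± 0.42 (SE). Of 10 adaptor genes 9 had a log2 fold change above 0, against 57.3% of all genes, with a median of 1.19 against 0.22. Without Controls 3 and 4, 7 of the 10 were above 0, against 57.2% of all genes, with a median of 0.55 against 0.16. Zfp30 and Zfp708, whose p-values were lowest, had log2 fold changes of -2.79 and 2.81, and in Zfp30 the library labelled Control 4 stood at 199 CPM against 2.26 to 19.6 CPM in the other Controls. DESeq2 called Zfp30 lower (Benjamini-Hochberg adjusted p = 0.00612). Over the 7 lists together, 83 genes were tested, 0 were called higher and 3 lower, against 1.03% and 1.55% of all genes. By edgeR 4 were above and 5 below 0 with an unadjusted p-value under 0.05, against 8.19% and 9.54% of all genes. By DESeq2 3 were called higher and 5 lower, against 519 and 1036 of 15825 genes, some of which (E2f5 among them) had no adjusted p.

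Of 30 germline targets listed, 29 were in the table and 23 passed the filter. By edgeR 13 rose and 0 fell, against 1.03% and 1.55% of all genes, and 10 did not pass, among them Tdrd1 (log2 fold change -1.31), which was chosen after its value was seen. At an unadjusted p under 0.05 the counts were 19 and 0, against 8.19% and 9.54% of all genes. DESeq2 called 16 higher and 0 lower, against 519 and 1036 of 15825 genes, and limma-voom 2 and 0, against 8 and 31 of 12761 genes. Of the 23, 13 had no count in any Control and so passed the filter only through their Dnmt1cKO level. The filter asks for a level in as many libraries as the smaller group holds (4). Dazl, Mael, Taf7l, Slc25a31 and Tex11, called and with counts in Control, had no count in at least 1 Control. So every called target needed its Dnmt1cKO level to be tested, and the shares of all genes given here are no test of the list. The rises were measured from the same libraries in which germline genes were already known to rise, and are given here to set beside the repressors. Taf7l, a testis form of a transcription factor subunit, stood at 150 to 427 CPM in Dnmt1cKO and at 0.246, 0, 0.754 and 0 CPM in Controls 1 to 4. Dazl, a germ cell RNA-binding protein gene, stood at 144 to 253 CPM against 0.246, 0.337, 9.05 and 0 CPM. Sycp1 and Syce1, of the synaptonemal complex, stood at 34.1 to 117 CPM and 17.96 to 182 CPM and had no count in Control. These 4 genes were named for the lowest adjusted p of the list, and for each of them every Dnmt1cKO library lay above every Control. That held for 11 of the 23 targets tested and for 2.59% of all genes tested. In the same Dnmt1cKO libraries each of the 10 repressor genes was detected, while Control 3 held 8 of them and the library labelled Control 4 held 6. Without Controls 3 and 4, 6 germline targets were called higher, and 0 repressor genes in either direction (edgeR; E2f6 lower and Cbx3 higher at an unadjusted p under 0.05; over all genes 0.322% higher and 0.0143% lower).

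**Figure D4:**
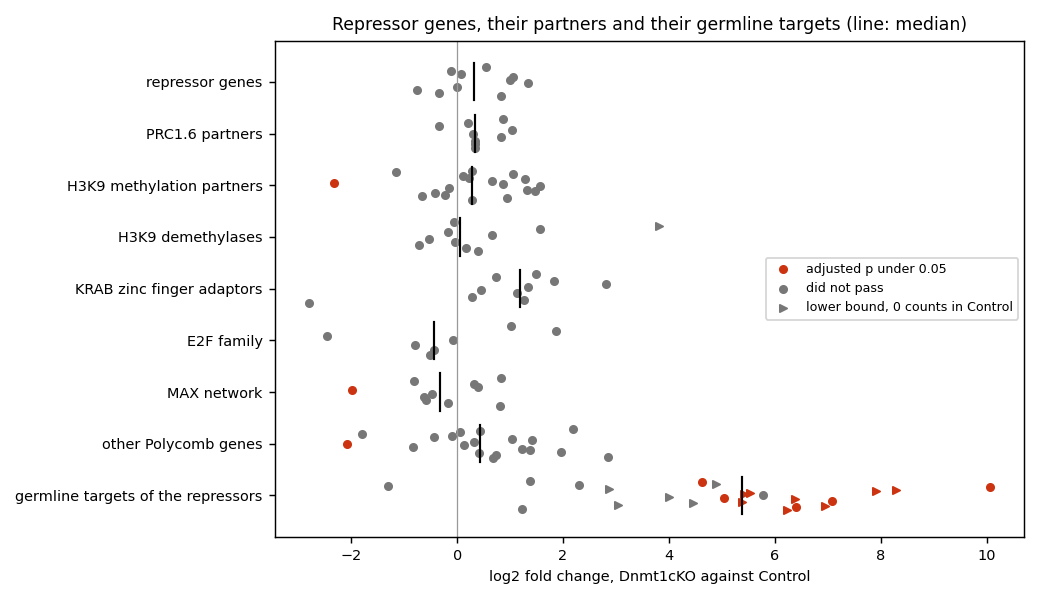
Log2 fold change of Dnmt1cKO against Control (horizontal axis) for each tested gene of the repressor set, the 7 lists of partners and relatives and the germline targets. Red points had an adjusted p under 0.05 in edgeR, triangles are lower bounds for genes with no count in Control, and lines are medians. The repressor genes lie between -0.75 and 1.34, and the 13 called germline targets lie above 4.

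For 9 of the repressor genes the most similar other gene is given, which across the 12 libraries was the one with the smallest root mean square difference in centred log2 CPM. This was Ddx5 for Ehmt1 (0.12), Ash2l for Cbx3 (0.13), Hif1an for Ehmt2 (0.17), Ywhah for Trim28 (0.21) and Ubap2l for Mga (0.27). For the scarcer genes it was Bhlhb9 for Max (0.34), Fam19a2 for L3mbtl2 (0.40), 0610009B22Rik for E2f6 (0.44) and Lipo1 for Pcgf6 (0.48). Within the set, the closest pair was Trim28 and Ehmt2 (0.54). Genes were compared over libraries that share their depth and composition, and no test was made.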

How the data were processed

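RNA of 12 libraries (4 Control, 8 Dnmt1cKO) was selected by its poly-A tail and the libraries were amplified by PCR, per the labels' protocols, which name no molecular identifiers. The authors deposited expected counts, estimates in which RSEM divides reads that fit several genes. RSEM 1.2.3, Bowtie 0.12.9, bcl2fastq 2.17.1.14 and the build mm10 are named, per the submitters' processing notes. Annotation, trimming and strand setting: not given in the sources used here.

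Groups were taken from the sample titles, which give a replicate number. Expected counts were rounded and tested by quasi-likelihood in edgeR 4.0.16 (R 4.3.3) (genotype only, TMM factors, robust dispersions, filterByExpr at counts of 10 and totals of 15), with Benjamini-Hochberg adjustment over all 12761 genes tested and a threshold of 0.05. CPM were computed on the TMM-adjusted total. SE is the log2 fold change divided by the square root of F, and 95% intervals use the t quantile of the fit. Intervals and floors (3 counts) cover counting error only where they rest on counts. The p-values reflect only variation among these libraries, which may be technical, since it is not stated that each came from its own pool of embryos.

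Named genes were Dnmt1, the 10 repressor genes, every called gene of a partner list (the 4 with the lowest adjusted p where more were called, the 2 with the lowest p where none was) and the nearest gene in pattern, which for Setdb1 is not reported here. The members and lists were chosen with earlier results of these data known. Alternatives were RLE factors, library totals, no filter, DESeq2 1.42.0, limma-voom (limma 3.58.1) with quality weights, replicate blocks, a stromal covariate, and leaving out libraries. The test was tried on data simulated with less spread between libraries than these hold, which does not show its error rates here. No pair of libraries within a group agreed within sampling noise (lowest chi-square per degree of freedom 26.99).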

Additional observations from a re-analysis of the deposited data

Results flagged for a closer look

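Among 49 groups of 4 or 8 libraries, for 26 named genes, 13 held 1 library whose gap to the nearest other was a larger share of the group's range than Dixon's 95% critical value allows. Chance flags about 1 in 20 groups, and the genes share libraries.

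Among the repressor genes, E2f6 and Pcgf6 both stood apart in Dnmt1cKO 4, at 74.5 CPM (next 40.3) and 27.96 CPM (next 10.96). Cbx3 was high in Dnmt1cKO 2 at 588.8 CPM (next 525.6). L3mbtl2 was high in Control 1 at 15.49 CPM (next 1.51), and Mga was low in the library labelled Control 4 at 2.844 CPM (next 89.5).

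In the same library Tfdp1 stood at 0 CPM (next 64.4), Zfp30 at 199 CPM (next 19.6) and Jarid2 at 790.5 CPM (next 181.4). In Control 3, E2f5 stood at 100.3 CPM (next 4.55) and Dazl at 9.046 CPM (next 0.337). In Dnmt1cKO 8, Zfp30 stood at 25.96 CPM (next 9.56), Zfp708 at 30.24 CPM (next 12.8) and Syce1 at 181.7 CPM (next 75.4).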

How the results depend on the processing

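None of the 10 repressor genes was called in any of the 21 alternatives, though Max had no adjusted p in DESeq2 and could not be called there. The direction of Mga, Max, L3mbtl2, Trim28, Ehmt1, Cbx3 and Dnmt1 held in all 21. With edgeR the germline targets called higher numbered 13, against 2 with limma-voom, 6 without Controls 3 and 4, and 8 to 15 when 1 library was left out (8 without the library labelled Control 4). Calls over all genes also moved, with 132 of 12761 higher in edgeR and 8 of 12761 in limma-voom. They were 45 of 13990 without Controls 3 and 4 and 60 of 13352 without the library labelled Control 4. Partner and family genes called higher numbered 0, against 3 with DESeq2 and 0 to 4 when 1 library was left out (4 without Control 1). Those called lower numbered 3, against 1 with library totals, 5 with DESeq2, 0 with limma-voom, 0 without Controls 3 and 4, and 0 to 4 when 1 library was left out (0 without the library labelled Control 4). Over all genes, 519 of 15825 were called higher with DESeq2 and 657 of 13161 without Control 1. Lower calls over all genes were 198 of 12761 in edgeR, 47 of 12761 with library totals and 31 of 12761 with limma-voom. They were 1036 of 15825 with DESeq2, 2 of 13990 without Controls 3 and 4 and 36 of 13352 without the library labelled Control 4. The direction turned for some log2 fold changes. With library totals Ehmt2 was 0.20 and Setdb1 0.37, and with no filter 0.048 and 0.11. With DESeq2 Pcgf6 was -0.018. With limma-voom E2f5 was 0.98, Ehmt2 0.012, Pcgf6 -0.087 and Setdb1 0.68. Without Controls 3 and 4 they were 1.13, 0.027, -0.79 and 0.65. With the stromal covariate E2f6 was 0.11 and Ehmt2 0.43. Leaving out 1 library gave -2.88 to 1.001 for E2f5, -0.75 to 0.70 for E2f6, -0.30 to 0.46 for Ehmt2, -0.36 to 1.79 for Pcgf6 and -0.51 to 1.18 for Setdb1. The cause was not tested. Depth limits the repressor values in Control 3 and the library labelled Control 4, where counts of 0 allow 2.26 and 8.53 CPM. Some values there differed by more than these floors. In Control 3, E2f6 held 4 counts where 75 and 148 would have been expected at the levels of Controls 1 and 2. In the library labelled Control 4, Setdb1 held 88 counts against 21.6 and 16.6 expected, and Ehmt1 156 against 51.2 and 60.8. The source of these differences was not tested.

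The deviations of same-numbered libraries had correlations of -0.055 to 0.0611 by title number and -0.0461 to 0.0536 by code. Correlations of differently numbered libraries were not set beside these, so they do not settle whether the numbers pair the samples. With the title number as a replicate block E2f6 was 1.33, Ehmt2 0.48 and Setdb1 1.10, and 3 germline targets were called higher and 0 partner genes lower. With the code as a block E2f5 was 0.63, E2f6 1.42, Ehmt2 0.26 and Setdb1 0.14, and 12 germline targets were called higher and 1 partner gene lower. Over all genes, 21 were called higher and 29 lower of 11459 with the title number, and 137 and 84 of 12415 with the code.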

Other observations

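These genes of the partner lists were chosen after their values were seen. Morc2a, an ATPase that works with the HUSH complex, stood at 47.2, 53.9, 26.4 and 0 CPM in Controls 1 to 4 and at 90.2 to 104 CPM in Dnmt1cKO. Every Dnmt1cKO library lay above every Control. Its log2 fold change was 1.57 ± 0.68 (SE) and was not called (edgeR, Benjamini-Hochberg adjusted p = 0.209). Bmi1, a subunit of canonical PRC1, stood at 25.1, 2.70, 0.754 and 11.4 CPM in Controls 1 to 4 and at 27.4 to 163 CPM in Dnmt1cKO, again without overlap (log2 fold change 2.85 ± 0.85, SE; edgeR, Benjamini-Hochberg adjusted p = 0.0615). Suz12, a core subunit of Polycomb complex 2, had a log2 fold change of 2.19 ± 0.70 (SE; edgeR, Benjamini-Hochberg adjusted p = 0.0867). Non-overlap in that direction was seen for 2.59% of all genes tested.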
